A study of Mus musculus with 5 samples.

Results

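Car4 encodes carbonic anhydrase 4, and it was followed here as 1 gene of the 32285 in the count tables of dissociated mouse lung. It was found as the row with that symbol in the tables of all 5 libraries (identifier ENSMUSG00000000805), and its share of positive cells and its transcript number per positive cell were measured in each endothelial and macrophage type. The gene was chosen for its fall in the knockout libraries, seen earlier in these same counts, so its own levels are given below as a description with no test. The lungs came from mouse embryos at stage E18.5. The 2 Het libraries are labelled Zswim8+/- and the 3 KO libraries Zswim8-/-; all hold whole lungs, enzymatically dissociated and cleared of red cells by lysis, and each is taken as 1 embryo. The labels give no strain, no sex and no description of the deleted allele, and there is no wild-type group. Zswim8 is the substrate adaptor of a Cullin ubiquitin ligase through which some microRNAs are degraded when they pair with particular target RNAs. The controls of the comparison thus carry a mutant allele as well.

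Carbonic anhydrase 4 interconverts carbon dioxide and bicarbonate. It is held on the outer face of the plasma membrane by a lipid (GPI) anchor, and in the lung it lies on the capillary surface, where blood meets the gas-exchange barrier. Its RNA is a standard marker of the aerocyte, the large, Car4-high capillary cell that lines the alveolus for gas exchange, as opposed to the general capillary cell, which proliferates and serves as its progenitor. Alveolar macrophages, the resident phagocytes of the airspace that mature around birth, express it too. A fall of Car4 in whole lung can therefore come from either lineage, and from fewer cells of a type or from less RNA per cell.

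The gene lies on chromosome 11 of the mouse build GRCm38, on the plus strand, from 84957786 to 84966044 in the GENCODE M21 annotation. Its main coding transcript has 8 exons and the annotation places no other gene over it; the nearest neighbours, Znhit3 and Usp32, are 41419 and 18397 bases away. The 250 bases before its RefSeq start (GRCm38.p6, chr11:84957504-84957753, plus strand) are shown because endothelial cells and macrophages, which are distinct lineages, both transcribe the gene. Capitals mark GGAA, the core recognised by the ETS family, to which endothelial ERG and macrophage PU.1 belong, read on either strand.

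Car4 promoter: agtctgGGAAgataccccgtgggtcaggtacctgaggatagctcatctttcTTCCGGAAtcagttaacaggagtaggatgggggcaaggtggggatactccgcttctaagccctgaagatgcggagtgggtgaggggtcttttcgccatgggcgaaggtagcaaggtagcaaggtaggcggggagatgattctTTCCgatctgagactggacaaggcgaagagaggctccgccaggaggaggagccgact

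The window held GGAA 4 times over both strands, 2 on each, and 2 of these stood back to back as TTCCGGAA, 192 bases before the start. At least 1 GGAA was present in 93.5% of the 32851 promoter windows of that length, and 4 or more in 33.4%, so the core by itself is common. The back-to-back form, singled out after the sequence had been read, was in 0.59% of windows. The GATA factor core GATAA had 0 matches on either strand (it was present in 22.6% of windows), as did the TATA box, written as TATAAA (12.4%), the E-box CACGTG (6.02%) and the T-box element AGGTGTGA (1.12%). These are matches of letters, and no binding was measured.

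Because Zswim8 acts on microRNAs, the mature forms of 5 microRNAs known to depend on it for their turnover are shown with the seed, bases 2 to 8, in capitals, from RefSeq (GRCm38.p6).

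miR-7a-5p: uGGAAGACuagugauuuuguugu
miR-29b-3p: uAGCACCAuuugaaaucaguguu
miR-322-5p: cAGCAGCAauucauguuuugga
miR-503-5p: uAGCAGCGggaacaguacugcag
miR-335-3p: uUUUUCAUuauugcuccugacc

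The 5 seeds differ, with miR-322-5p and miR-503-5p alike except at the last seed base. The 3′ UTR of Car4 is short, 239 bases against a median of 961 over 21020 genes. It held 0 full matches to each of the 5 seeds, and 0 matches to bases 2 to 7. Among the 3765 genes whose UTR is 0.5 to 1.5 times as long, the full match to miR-322-5p was present in 4.78%, that to miR-335-3p in 6.24%, those to miR-29b-3p and miR-7a-5p in 2.55% and 2.47%, and that to miR-503-5p in 0.558%. No match was thus the usual state for a UTR of that length, and these libraries do not measure microRNAs.

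After filtering, 3051 to 4634 cells per library were kept, with medians of 9920 to 12899 transcripts (unique molecular identifiers, UMIs) per cell, and at most 7 barcodes were shared by any pair of libraries. Zswim8 RNA did not separate the labels: it stood at 36.5 and 38.8 CPM (counts scaled to an equal total per library or sum) in the Het libraries and at 38.6, 38.9 and 41.5 in the KO libraries, so the directions below are those of the genotype labels. KO replicates 1 and 2 carried Xist (1007 and 1048 CPM) and the other 3 libraries Y-linked RNA, so the female libraries are all labelled KO. Endothelial cells showed their defining RNAs (Pecam1, Cdh5, Cldn5, Emcn, Kdr, Tie1) in every library, and so did macrophages (Adgre1, Csf1r, Mrc1, Cd68, Fcgr1, Mertk).

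Among all kept cells the Het libraries held 4607 and 5213 Car4 UMIs and the KO libraries 161, 557 and 659. Macrophages held most of them, 70.6% and 77.3% of the Het UMIs and 88.2%, 91.0% and 83.9% of the KO UMIs. Endothelial cells held 13.8% and 9.28% in the Het libraries and 4.97%, 5.21% and 6.37% in the KO libraries. In a library of whole lung, the macrophage is thus the larger source of this capillary marker. Epithelial clusters held 8.88% and 9.07% of the Het UMIs, of which 96.1% and 96.8% sat in cells that also carried at least 3 markers of another lineage.

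The share of Car4-positive barcodes in cell types not known for the gene also differed with the genotype label. Red-cell barcodes had a Car4 UMI in 1.21% and 0.954% of cases in the Het libraries and in 0.0536%, 0.176% and 0.0949% in the KO libraries, at medians of 2328 to 2622 UMIs; whether these UMIs are free RNA was not tested. Mesenchymal cells had medians of 10672 to 12621 UMIs, above those of endothelium (7167 and 8023 in the Het and 8465 to 10636 in the KO libraries). They were positive in 1.82% and 2.14% of Het cells and in 0 of 713 cells of KO replicate 1 (which allows a share of up to 0.421%). In KO replicates 2 and 3 the shares were 0.217% and 0.866%. Endothelial cells and macrophages stood above these mesenchymal shares in every library.

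Endothelial cells of the KO libraries held little Car4 RNA. A Car4 UMI was found in 128 of 449 cells (28.5%, exact 95% binomial interval 24.4 to 32.9%) and 84 of 311 cells (27.0%) of the Het libraries. It was found in 4 of 302 (1.33%), 10 of 301 (3.32%) and 13 of 297 cells (4.38%) of the KO libraries. The groups do not overlap, and every KO library lies far under both Het libraries.

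The level in those positive cells was also lower. Positive endothelial cells held 4.96 and 5.76 Car4 UMIs on average in the Het libraries and 2.00, 2.90 and 3.23 in the KO libraries. At least 5 UMIs were reached by 56 and 43 Het cells and by 0, 1 and 3 KO cells. Over the whole lineage Car4 stood at 137 ± 4.23 CPM (SD, n = 2) in the Het and 5.45 ± 3.12 CPM (SD, n = 3) in the KO libraries, a log2 fold change of -4.66. In the arithmetic of log2 ratios of group means, the share of positive cells accounts for -3.21 and the UMIs per positive cell for -0.98 of the -4.08 in UMIs per cell (means of ratios do not add exactly).

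With every cell thinned to 3000 UMIs, so that depth is equal, the positive share was 22.8% and 20.3% against 0.714%, 1.01% and 1.76%. The UMIs per positive cell then no longer differed in direction (log2 ratio 0.04), on 2, 3 and 5 KO cells. The lower share was thus present at equal depth, and the level in the few KO positive cells was not resolved.

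In macrophages the share of positive cells differed less between the groups, and the level per positive cell more. A Car4 UMI was found in 309 of 1306 (23.7%) and 311 of 1323 (23.5%) Het cells, and in 50 of 673 (7.43%), 98 of 948 (10.3%) and 108 of 1203 (8.98%) KO cells. Positive macrophages held 10.5 and 12.95 UMIs in the Het libraries and 2.84, 5.17 and 5.12 in the KO libraries. The groups are again apart in both measures, and KO replicate 1 is the lowest in each.

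Car4 in the macrophage lineage stood at 176 ± 18.7 CPM (SD, n = 2) and 26.5 ± 11.3 CPM (SD, n = 3), a log2 fold change of -2.73. The share of positive cells contributes -1.40 and the UMIs per positive cell -1.42, of the -2.78 in UMIs per cell. The level difference included a small high-expressing tail: 56 and 60 Het macrophages held at least 20 UMIs, against 0, 3 and 5 KO macrophages. The richest cell held 154 and 170 UMIs against 17, 77 and 73. The difference was not confined to that tail, as the median positive cell held 3 and 4 UMIs in the Het libraries and 2 in each KO library. The 10 richest macrophages held 27.5% and 25.4% of all macrophage Car4 UMIs in the Het libraries and 53.5%, 49.3% and 55.9% in the KO libraries. Thinned to 3000 UMIs, the macrophage shares were 13.04% and 12.8% against 3.56%, 5.51% and 3.64%.

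**Figure D1:**
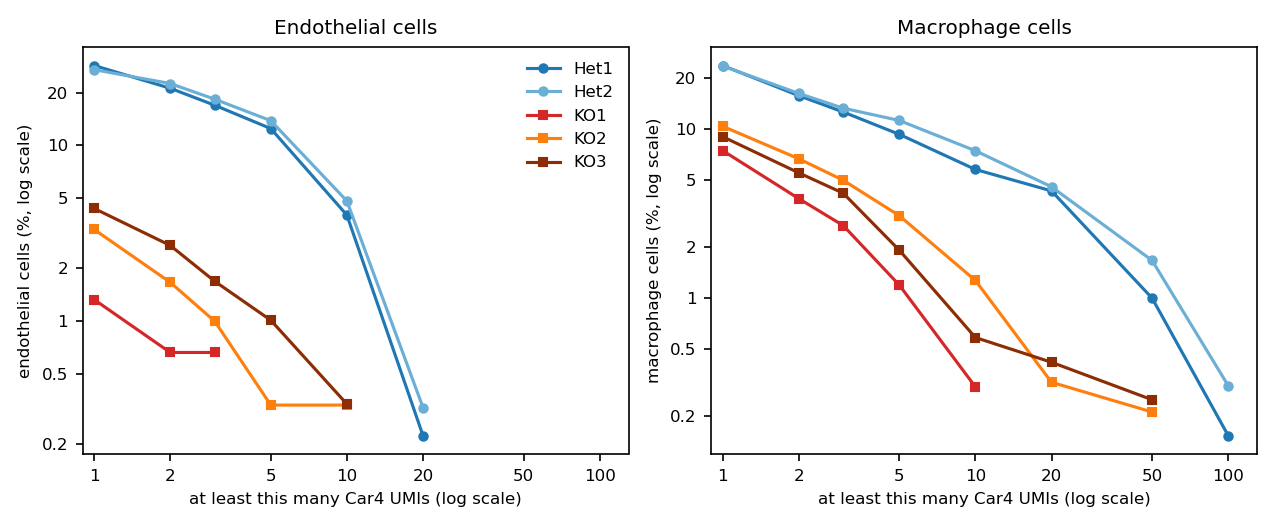
Share of endothelial cells (left) and macrophages (right) that hold at least a given number of Car4 UMIs (both axes logarithmic), 1 line per library, blue circles for Het and red to brown squares for KO; points at 0 are not drawn. The Het lines start at 23.5 to 28.5% of cells. In macrophages 4.29% and 4.54% of Het cells still hold at least 20 UMIs, against 0, 3 and 5 cells of the KO libraries. In endothelium 1 cell of each Het library and 0 KO cells do.

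Single types were then compared, with cells clustered without Car4. Endothelial cells fell into 6 clusters, described by their leading genes. The aerocyte-like cluster (led by Prx, Scn7a and Kitl) held 61 and 43 Het cells, of which 59 (96.7%) and 40 (93.0%) were Car4-positive with 6.61 and 7.45 UMIs each. In the KO libraries it held 1, 1 and 0 cells, and both of these cells were positive, with 3 and 4 UMIs. Car4 stood at 964 and 1001 CPM in that Het cluster, the highest level of the endothelium.

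The general capillary-like cluster (led by Gpihbp1, Pcdh17 and Scn7a) is the largest of the lineage, with 275 and 189 Het cells and 162, 181 and 166 KO cells. Its positive share was 21.5% and 15.9% in the Het libraries and 1.85%, 3.87% and 4.82% in the KO libraries. Its level was 84.7 ± 18.7 CPM (SD, n = 2) against 8.45 ± 4.15 CPM (SD, n = 3), about 10.0-fold lower. Cycling capillary-like cells (led by Hist1h2ae, Hist1h2ap and Hist1h3c) were positive in 19.1% and 36.1% of 47 and 36 Het cells and in 0, 2.27% and 7.89% of 39, 44 and 38 KO cells. These clusters are not free of cells with aerocyte markers: 111 and 89 Het endothelial cells showed 5 or more of the 9 other markers, more than the 61 and 43 cells of the aerocyte-like cluster.

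The other 3 endothelial clusters had little Car4 in either group. The cluster led by Vwf, Procr and Ptprb, which by its markers counted as general capillary-like although Vwf marks veins, had 0 positive cells among 21 and 26 Het and 25, 14 and 20 KO cells, where a count of 0 allows shares of up to 11.5 to 21.4%. The arterial-like cluster (led by Cxcl12, Stmn2 and Gja4) had 1 and 0 positive Het cells and 0, 1 and 2 positive KO cells, none with more than 1 UMI. Lymphatic-like cells (led by Ccl21a, Mmrn1 and Reln) had 1 positive cell in all 5 libraries together, in Het replicate 2, where that cluster held 3 cells.

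Macrophages fell into 9 clusters, of which 6 were alveolar macrophage-like and 3 interstitial-like. Car4 was highest in the cluster led by Spp1, Atp6v0d2 and Inhba, at 1130 and 1113 CPM in the Het libraries, which is near the level of the aerocyte-like cluster (964 and 1001 CPM). It was positive in 74.5% and 77.4% of 102 and 115 Het cells, with 29.7 and 31.9 UMIs per positive cell, and by itself held 48.9% and 54.5% of all Car4 UMIs of the Het libraries. KO cells that fell into it held the gene: 6 of 6 cells of KO replicate 2 and 9 of 15 of KO replicate 3 were positive, with 20.2 and 29.3 UMIs, and KO replicate 1 had 0 such cells among 673 macrophages. In KO replicate 3, 34.1% of the Car4 UMIs of that cluster lay in cells with at least 3 markers of another lineage, against 0% in the other libraries that had any.

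Its cycling counterpart (led by Inhba, Spp1 and Car6) had Car4 in 65.2% and 61.8% of 23 and 34 Het cells, and in 1 of 3 and 4 of 9 cells of KO replicates 2 and 3. The cluster led by Mmp19, Plet1 and Olr1 was positive in 32.7% and 33.1% of Het cells and in 12.2%, 25.5% and 21.7% of KO cells. In these clusters the KO libraries are lower in share, but on 3 to 60 cells each. The level of the Mmp19-led cluster overlapped between the groups. Its positive cells held 8.26 and 6.14 UMIs in the Het and 2.17, 8.93 and 3.46 in the KO libraries. Its CPM were 188 and 138 against 15.5, 148 and 46.0.

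The other 3 alveolar macrophage-like clusters, which hold most of the cells, differed less. The largest (led by Plet1, Lpl and Ear2) was positive in 19.6% and 15.6% of 490 and 461 Het cells and in 12.1%, 12.7% and 9.26% of 132, 251 and 324 KO cells. Its UMIs per positive cell overlapped between the groups (2.47 and 2.78 against 2.625, 3.625 and 2.17), and so did its CPM. Cycling cells led by Pclaf, Nusap1 and Top2a were positive in 23.2% and 23.6% against 12.5%, 15.8% and 13.4%. The cluster led by Gal, Ccnb2 and Mcm5 was positive in 17.4% and 18.6% against 17.1%, 16.1% and 13.1%, with 27.4 ± 6.92 CPM (SD, n = 2) and 23.2 ± 7.64 CPM (SD, n = 3), which overlap. At 3000 UMIs per cell the shares of all 3 overlapped between the groups.

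Interstitial-like macrophages, which live in the tissue rather than the airspace, had Car4 near the share in mesenchymal cells, 0 to 3.28% of cells in each cluster and library and never more than 1 UMI in a cell. Among the endothelial and macrophage clusters, the order of Car4 levels in the Het libraries was therefore the Spp1-led macrophages and the aerocyte-like cells at about 1000 CPM, the cycling Spp1-led cells (295 and 460 CPM), the Mmp19-led macrophages (188 and 138 CPM), the capillary-like and cycling capillary-like cells (43.6 to 98.3 CPM), the 3 other alveolar macrophage clusters (22.5 to 41.5 CPM), and the arterial-like, Vwf-led, lymphatic-like and interstitial-like clusters. Outside these lineages, an unnamed cluster made up of cells with both endothelial and epithelial markers stood at 112 and 63.1 CPM. Alveolar type 2-like cells led by Egfl6, Slc34a2 and Sftpa1 stood at 49.9 and 56.9 CPM. Of those UMIs, 99.7% and 99.3% lay in cells with at least 3 markers of another lineage. The other alveolar type 2-like cluster (led by Retnla, Lyz1 and S100g) stood at 0.655 and 1.11 CPM. Erythroid cells led by Hbb-bs, Hba-a1 and Hba-a2 stood at 22.5 and 37.2 CPM, on 10 and 6 UMIs, 70% and 33.3% of them in such mixed cells. Neighbours within the last groups overlap between the Het libraries and are not ordered. CPM compare 1 gene between cells here and carry no gene length.

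**Figure D2:**
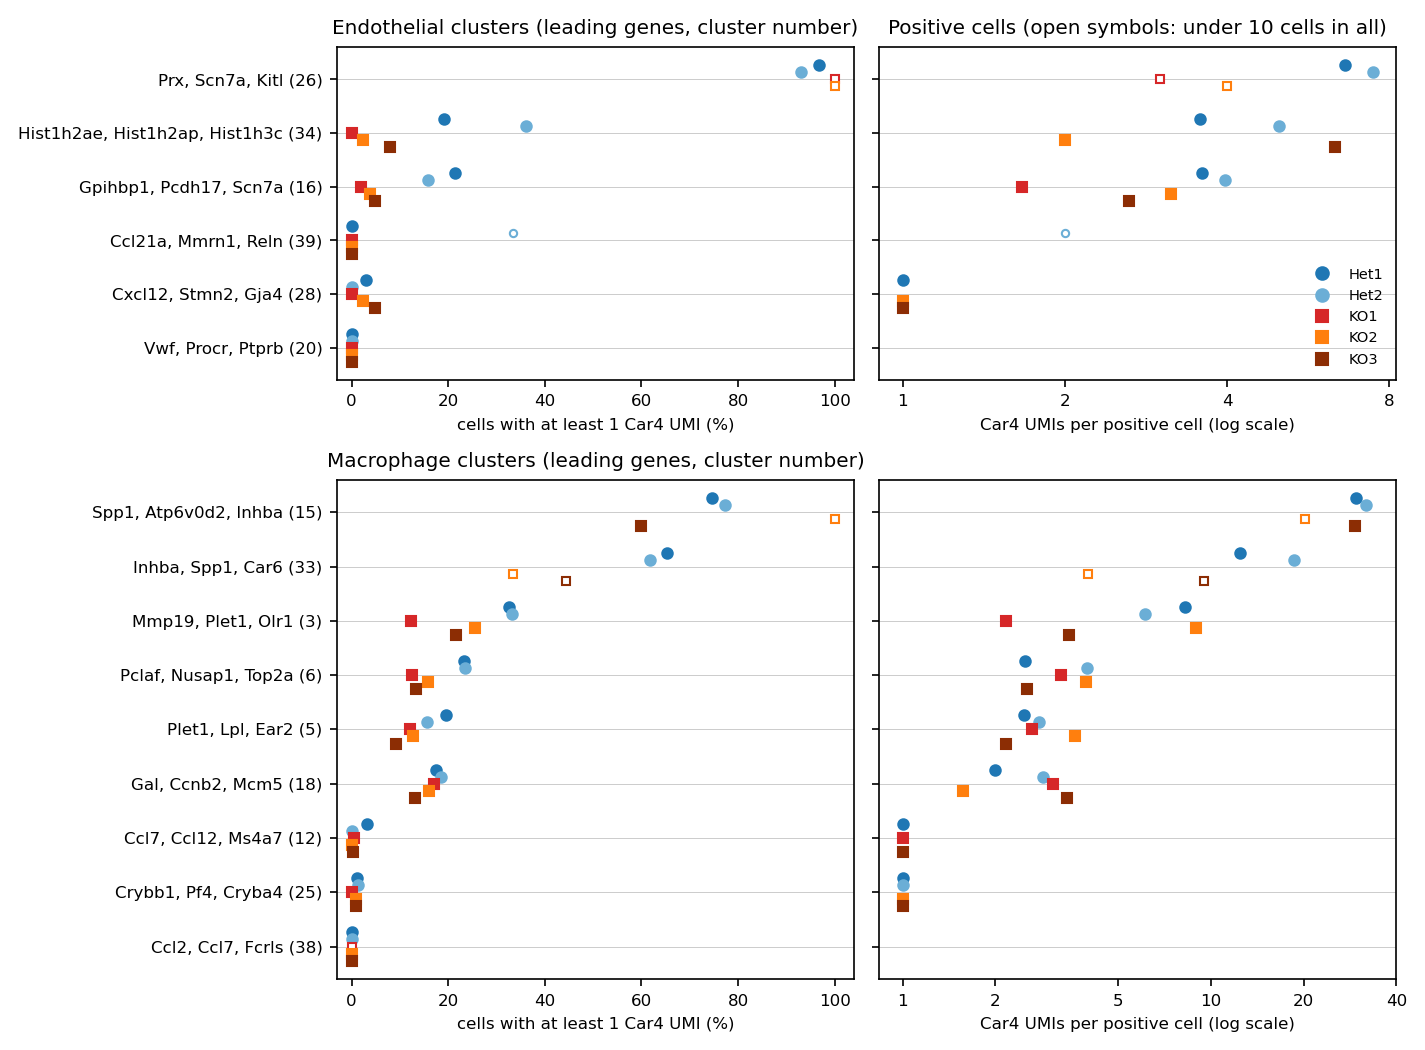
Car4 in the 6 endothelial and 9 macrophage clusters, with 1 point per library (circles Het, squares KO, open symbols for under 10 cells): left, percent of cells with at least 1 Car4 UMI; right, Car4 UMIs per positive cell on a log axis. In the general capillary-like cluster (16) all 3 KO points lie at 4.82% or lower, against 15.9% or higher for Het, whereas in the macrophage cluster led by Gal (18) they lie at 13.1 to 17.1% beside 17.4 and 18.6%.

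Clusters depend on genes that themselves differed between the groups, so cells of a type that fell away and cells that lost the genes defining it cannot be told apart by counting cluster members. Car4 was also compared between cells matched for the number of other markers they showed. Of these markers, 6 of 8 tested aerocyte and 14 of 15 alveolar macrophage markers were themselves called lower in the KO sums. An equal number of markers is thus not an equal cell state, and the limit of the clusters applies here too. Among endothelial cells with 5 to 9 of the 9 other aerocyte markers, 88 of 111 (79.3%) and 65 of 89 (73.0%) Het cells were Car4-positive. Of the KO cells with as many, 2 of 27 (7.41%), 4 of 19 (21.1%) and 7 of 28 (25.0%) were positive. These KO cells were deeper (medians of 23303 to 31223 UMIs against 7035 and 8023).

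Endothelial cells with 4 of the other markers were positive in 30.6% and 29.4% of Het and 3.57%, 6.25% and 0% of KO cells, and those with 2 or 3 markers in 10.6% and 5.83% against 0.73%, 0.699% and 1.34%. Thinned to 3000 UMIs, cells with 2 or 3 markers were positive in 12.8% and 14.3% of 125 and 91 Het cells and in 0, 1 and 2 of 70, 67 and 65 KO cells. With 4 markers at that depth, 9 of 20 cells of each Het library and 1 of 4, 1 of 2 and 1 of 6 KO cells were positive. At equal depth only 3 KO cells per library still showed 5 or more markers, against 68 and 45 Het cells, and 1, 1 and 2 of them were positive. Cells with 0 or 1 marker overlapped between the groups at their own depth (5.51% and 2.94% of Het against 0%, 2.80% and 5.06% of KO cells). Thinned, cells with 0 or 1 marker were positive in 9 of 216 and 4 of 139 Het cells. In the KO libraries 0 of 203, 2 of 226 and 1 of 210 such cells were positive. At equal depth the lower KO share was thus seen in cells with 0 or 1 marker and in those with 2 or 3. With 4 or more, the KO libraries had 2 to 6 cells per group, too few to give a share.

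Macrophages matched for the 15 other alveolar macrophage markers were compared in the same way, by share and by level. With 3 or 4 markers, 14.6% and 8.65% of Het cells and 1.67%, 6% and 4.53% of KO cells were positive. With 5 or 6 markers, 22.2% and 22.7% of Het cells and 12%, 18.3% and 12.7% of KO cells were positive. With 7 or 8 markers the shares were 44.8% and 45.0% against 30%, 35.4% and 29.0%. With 9 or more they were 69.2% and 82.0% of 52 and 50 Het cells, and 2 of 2, 4 of 5 and 6 of 13 KO cells. The shares from 3 to 8 markers are apart between Het and KO, and those at 9 or more overlap. The UMIs per positive cell were 6.41 and 8.68 against 2.56, 4.25 and 3.31 with 5 or 6 markers. They were 14.8 and 15.1 against 3.61, 9.94 and 8.29 with 7 or 8 markers, and 20.6 and 22.4 against 1.5, 9.25 and 13.3 with 9 or more. The level per positive cell was thus lower in every KO library in these 3 groups, on as few as 2 cells. With 3 or 4 markers the Het libraries differed widely (2.6 and 10.1, against 1.9 to 2.33 in KO).

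**Figure D3:**
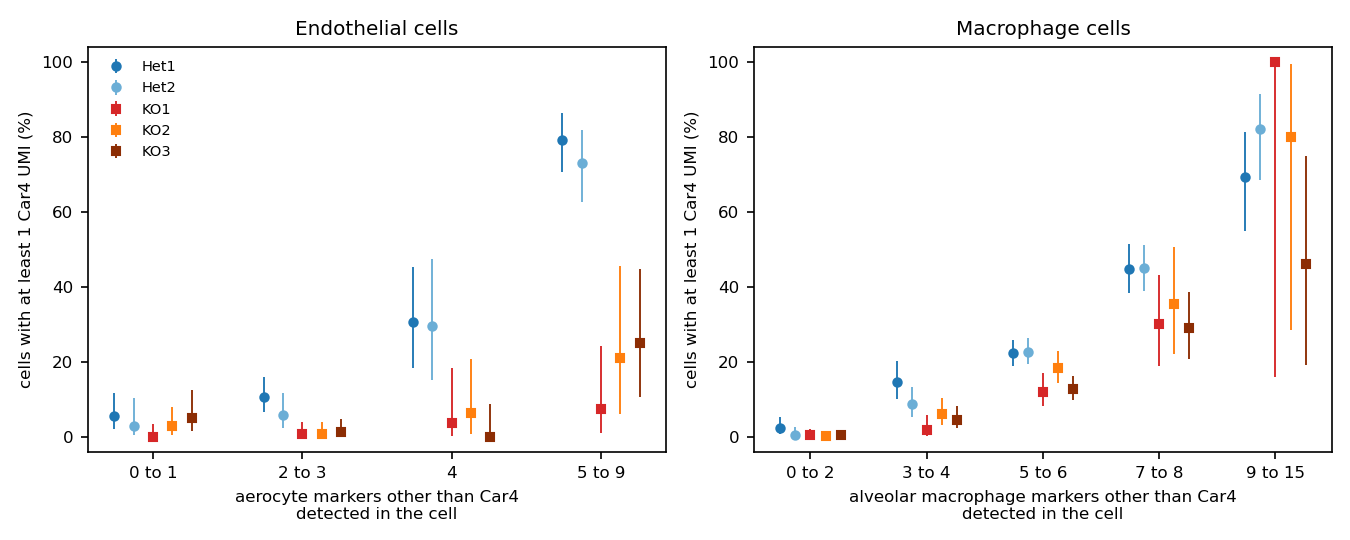
Percent of endothelial cells (left) and macrophages (right) with at least 1 Car4 UMI, by the number of other type markers detected in the cell, with 1 point per library and exact 95% binomial intervals (counting error only). At 5 to 9 aerocyte markers the Het points stand at 79.3% and 73.0% and the KO points at 7.41 to 25.0%; at 9 or more alveolar macrophage markers Het and KO shares overlap.

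The difference in Car4 UMIs per cell can be split by arithmetic into a part from fewer cells in high clusters and a part from less Car4 within clusters. In macrophages the means were 2.77 and 0.401 UMIs per cell, and of that difference 77.5% came from the mix of clusters and 22.5% from the level within them. The Spp1-led cluster alone carried -1.59 of the mix term of -1.83. In endothelium the means were 1.47 and 0.0877 UMIs per cell, with 48.8% from the mix, almost all through the aerocyte-like cluster (-0.682), and 51.2% from the level. The level term of -0.71 came from the general capillary-like cluster (-0.364), the aerocyte-like cluster (-0.217, where the KO level rests on 2 cells) and the cycling capillary-like cells (-0.122). Taken against each KO library alone, the level share was 55.0%, 50.2% and 32.1% for KO replicates 1, 2 and 3. The aerocyte-like cluster held only 1 cell in each of KO replicates 1 and 2. In KO replicate 3 it held 0 cells, so its level was set to that of Het and its level term to 0. The 32.1% is therefore not comparable with the other shares.

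This split depends on how cells are grouped. The endothelial mix share was 12.9% with doublets kept, 4.81% at Leiden resolution 0.5 and 9.18% with Car4 allowed in the clustering, settings that form no separate aerocyte-like cluster. At resolution 2 it was 42.3% with a larger aerocyte-like class of 175 and 126 Het and 16, 17 and 23 KO cells, Car4-positive in 53.1% and 47.6% against 6.25%, 23.5% and 8.70%. The macrophage mix share ranged from 66.8% to 76.6% over the other clusterings and filters and was 45.9% when cells were grouped by their number of other markers instead.

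**Figure D4:**
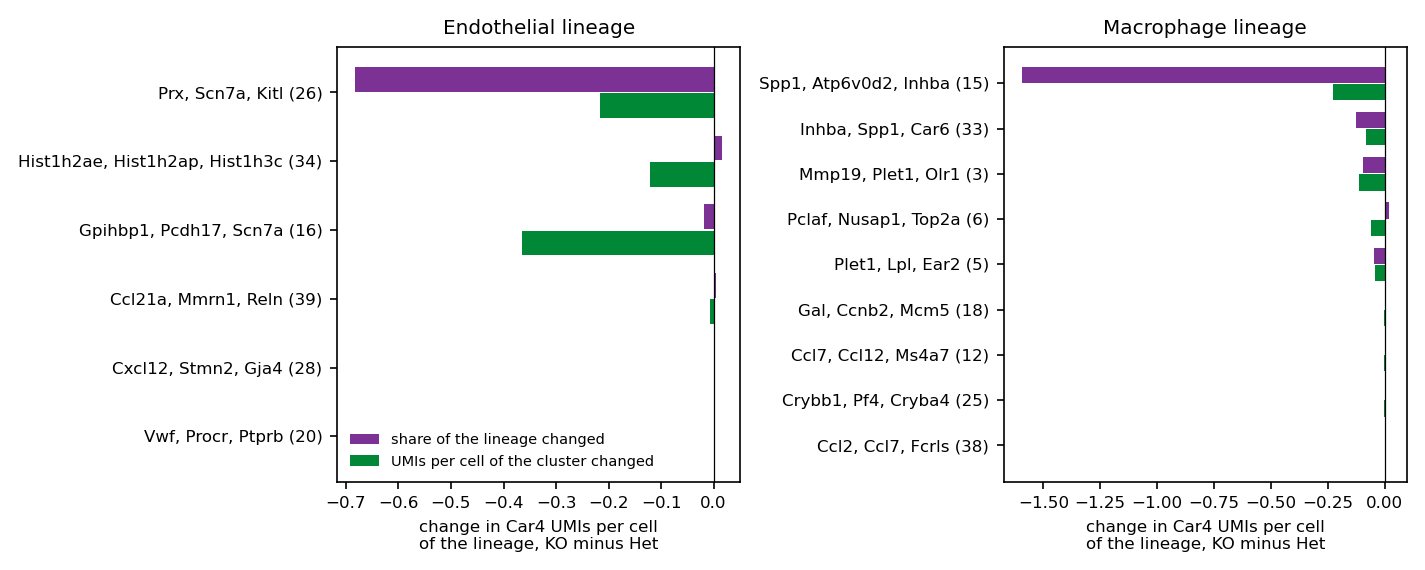
Change in Car4 UMIs per cell of the lineage, KO minus Het, split by cluster into a term for the changed share of the lineage (purple) and a term for the changed UMIs per cell of the cluster (green). The longest bars are the share terms of the Spp1-led macrophages (-1.59) and of the aerocyte-like cluster (-0.682), and the longest level term is that of the general capillary-like cluster (-0.364).

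Other genes, which the choice of Car4 did not use, were tested on counts summed per library over each lineage (edgeR quasi-likelihood test, Benjamini-Hochberg adjustment over all genes tested). The gene lists below were chosen with earlier results of these data known, so counts of their called members are no independent support. Of 11889 genes in the endothelial sums, 5.86% passed an adjusted p of 0.05, 4.18% lower and 1.68% higher in the KO libraries. Of 12941 genes in the macrophage sums, 14.2% passed, 7.63% lower and 6.56% higher. With sex as a covariate 141 endothelial genes passed in place of 697, and 851 macrophage genes in place of 1837. Without Het replicate 1 or 2 the endothelial count was 107 or 103, without KO replicate 2 it was 1106 and without KO replicate 3 it was 277; the macrophage count was 817 or 688 without Het replicate 1 or 2. With few libraries, and with nothing in the labels on litters, the p-values measure the spread between these embryos.

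Most other aerocyte markers fell. Of 9, 8 could be tested, 6 fell and 0 rose, where 4.18% of all genes fell. Their median log2 fold change was -1.51 against -0.0018 over all genes. Emp2, a membrane protein of the PMP22 family, fell from 179 to 19.96 CPM (log2 fold change -3.17, SE 0.23, adjusted p = 0.000262). Tbx2, a T-box transcription factor, stood at 110 and 134 CPM in the Het and at 21.55, 14.6 and 18.7 CPM in the KO libraries (log2 fold change -2.74, SE 0.16, adjusted p = 0.000152). Pmp22 and Kitl, the KIT ligand, fell by 2.10 and 1.40 on the log2 scale, and Chst1, a sulfotransferase, and Apln, the apelin peptide, by 1.63 and 1.09. In each of these 6 genes all 3 KO libraries lay below both Het libraries. The groups did not overlap, in either direction, for 39.9% of all endothelial genes. The count of fallen markers was 4 without Het replicate 1, and Chst1 did not pass with sex as a covariate (adjusted p = 0.159).

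Ednrb, the endothelin receptor B, was 205 and 141 CPM (log2 fold change -0.54, adjusted p = 0.13), and Fibin 17.6 and 38.3 CPM (log2 fold change 1.17, adjusted p = 0.273); neither passed. Rprml had 0 UMIs in endothelium in every library. Of the 7 general capillary markers 2 fell and 0 rose, where 4.18% of all genes fell: these were Sema3c, a secreted semaphorin (26.5 to 4.53 CPM, log2 fold change -2.54), and Glp1r, the GLP-1 receptor (-0.84). The other 5, Gpihbp1, Plvap, Aplnr, Cd93 and Ptprb, lay between -0.25 and 0.28 and did not pass. Beside these falls, the 6 general endothelial markers summed to 5744 and 5967 CPM in the Het and 4072 to 4231 CPM in the KO libraries, and the 6 lymphatic markers to 1225 and 1217 against 1281 to 2923 CPM. Summed red-cell markers (7 of 7 detected in each library) in the endothelial cells were 25996 and 13335 CPM in the Het against 7527 to 10936 CPM in the KO libraries, and summed alveolar type 2 markers (7 of 7) 861 and 396 against 312 to 545 CPM. Alveolar type 1 markers (6 of 6), whose epithelial cluster has Emp2 among its leading genes, summed to 108 and 168 against 38.9 to 68.6 CPM. Club markers (4 or 5 of 5) summed to 188 and 132 against 31.2 to 73.4 CPM, neutrophil markers (7 or 8 of 8) to 147 and 125 against 42.5 to 55.95 CPM, and megakaryocyte markers (4 or 5 of 5) to 87.3 and 75.0 against 14.2 to 39.2 CPM. These sums are apart between Het and KO, as are those of red cells, and their part in the result was not tested.

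In macrophages 14 of the 15 other alveolar macrophage markers fell and 0 rose, where 7.63% of all genes fell. Their median log2 fold change was -0.98 against 0.0096 over all genes. Atp6v0d2, a subunit of the vacuolar proton pump, fell most (50.9 to 2.33 CPM, log2 fold change -4.24, SE 0.27, adjusted p = 5.9e-05). Krt79, Fabp4, the fatty acid binding protein of mature alveolar macrophages, and Ctsk, a lysosomal protease, fell too (log2 fold changes of -4.20, -3.37 and -3.09). Pparg, the transcription factor required for alveolar macrophage development, fell by 0.56, and Lpl, lipoprotein lipase, by 0.82. Chil3, a chitinase-like protein, fell from 12.4 to 1.64 CPM (adjusted p = 0.0373), a call lost with DESeq2 (0.323), with sex as a covariate (0.171) and without KO replicate 2 (0.117). Krt19 was at 10.4 and 10.25 CPM (adjusted p = 0.917) and did not pass.

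Interstitial macrophage markers moved the other way: 9 of 10 rose, where 6.56% of all genes did. Among them were Ms4a7, Maf and the complement genes C1qa, C1qb and C1qc (log2 fold changes of 1.39 to 1.72). Cd163 did not pass (0.64, adjusted p = 0.224). The 10 markers summed to 3747 and 3033 CPM in Het macrophages and 8103 to 13006 CPM in KO macrophages. Summed monocyte markers (6 of 6 detected in each library) were 833 and 849 against 1081 to 1172 CPM, and their part was not tested. Alveolar macrophage-like clusters held 1084 of 1306 and 1116 of 1323 Het macrophages. In the KO libraries they held 371 of 673, 592 of 948 and 783 of 1203, and interstitial-like clusters held the others. In sums over a lineage, fewer alveolar-type cells and less RNA per cell cannot be told apart.

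The other carbonic anhydrases gave no call in endothelium. Of 15, 4 had enough UMIs to be tested there and 0 passed, where 5.86% of all genes did. Car2, the cytosolic enzyme, stood at 67.0 and 63.6 CPM in the Het and 50.8, 62.5 and 52.3 in the KO libraries (log2 fold change -0.24, adjusted p = 0.294). Car8, a family member without catalytic activity, and Car14, a membrane-bound enzyme that also faces outward, gave -0.43 and -0.51 (adjusted p = 0.119 and 0.234), and Car12 0.45. Car8 passed without KO replicate 1 (adjusted p = 0.0364). In Car2, Car8 and Car14 the KO libraries all lay under the Het libraries, and the groups did not overlap, in either direction, for 39.9% of all endothelial genes.

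In macrophages 9 carbonic anhydrases were tested, 1 fell, which was Car6, and 0 rose, where 7.63% of all genes fell and 6.56% rose. Car6, the secreted enzyme of the family, had 285 and 355 UMIs in the Het libraries and 17, 44 and 49 in the KO libraries, or 14.8 and 17.2 CPM against 1.69, 3.13 and 2.43 (log2 fold change -2.69, SE 0.18, adjusted p = 7.8e-05). In the Het libraries it lay mainly in the clusters with most Car4: 42.2% and 49.6% of Het cells of the Spp1-led cluster and 65.2% and 64.7% of its cycling counterpart were Car6-positive, against 1.02% and 1.52% of the large Plet1-led cluster. Of the 89 and 99 Car6-positive Het macrophages, 66.3% and 66.7% also held Car4, against 6.67%, 23.3% and 30.95% of the 15, 30 and 42 Car6-positive KO macrophages. In the Plet1-led cluster Car6 was positive in 3.03%, 3.98% and 4.01% of KO cells, above the Het shares. Car9, the hypoxia-induced membrane enzyme, stood at 4.25 and 4.07 CPM in the Het and KO means (adjusted p = 0.914).

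Of 18 transport genes for bicarbonate, protons or carbon dioxide, 7 were tested in endothelium and 0 passed, where 5.86% of all genes did. Aqp1, the water channel that also lets carbon dioxide through, came closest, with 259 and 272 CPM in the Het and 211, 216 and 193 CPM in the KO libraries (log2 fold change -0.36, adjusted p = 0.0518). It passed with DESeq2 (adjusted p = 0.0289), with library size alone (0.0426) with mixed cells left out (0.0138) and without KO replicate 2 (0.0239), and not with sex as a covariate (0.143). In macrophages Aqp1 fell from 3.97 to 2.12 CPM (log2 fold change -0.88, adjusted p = 0.0168). There it did not pass with sex as a covariate (0.136) or without KO replicate 2 (0.0641). It was the only 1 of 10 transport genes tested in macrophages to pass, where 14.2% of all genes did. Slc4a2 and Slc4a7, a bicarbonate exchanger and a sodium bicarbonate cotransporter, lay between -0.22 and 0.08 in both lineages and did not pass.

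**Figure D5:**
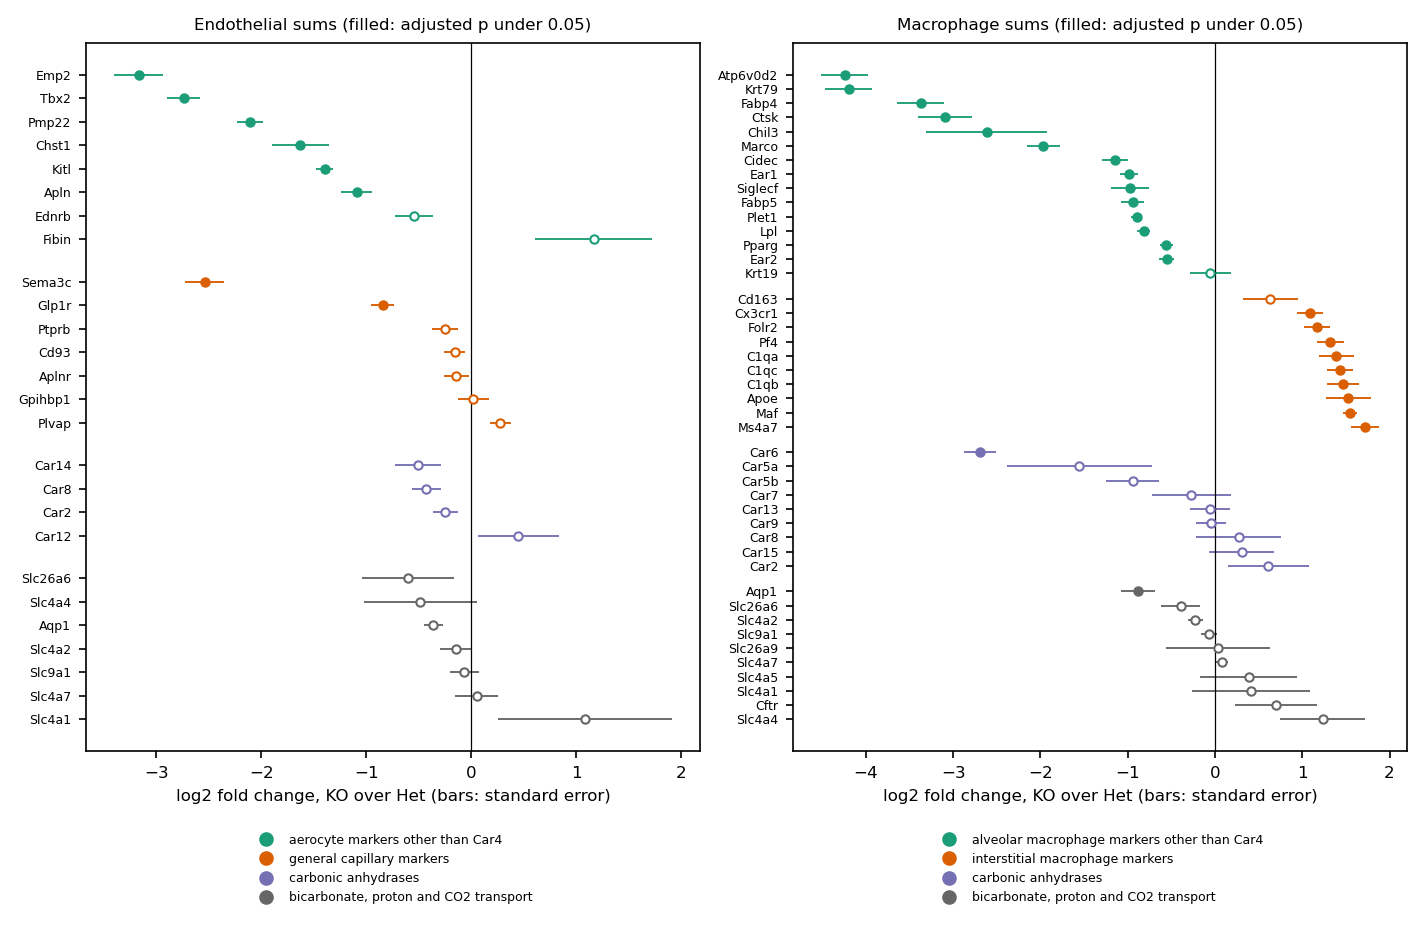
Log2 fold change (KO over Het, with standard errors) of the tested genes of each list in the endothelial sums (left) and macrophage sums (right); filled points have an adjusted p under 0.05. Aerocyte markers reach -3.17 (Emp2) and alveolar macrophage markers -4.24 (Atp6v0d2), interstitial markers, drawn for macrophages only, lie at 0.64 or higher there, and among the carbonic anhydrases only Car6 in macrophages (-2.69) is filled.

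The company that Car4 keeps was listed within each lineage. In the Het libraries, the 10 genes most raised in Car4-positive over Car4-negative endothelial cells were Emp2, Itgb5, Tbx2, Rtn1, Pmp22, Tex14, Slc12a2, Hopx, Ackr2 and Gnao1. Emp2 stood at 540 and 546 CPM in positive and 42.7 and 35.1 CPM in negative cells. Itgb5, the integrin beta 5 chain, stood at 127.5 and 114 CPM against 12.25 and 11.05 CPM. Positive and negative endothelial cells had like depth (medians of 6934 and 7947 against 7297 and 8092 UMIs).

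These companions were chosen in the Het libraries alone, but the same Het counts enter the comparison with KO, so this is no independent support. In the endothelial sums Tex14 stood at 20.2 and 1.74 CPM in the Het and KO means, Itgb5 at 41.8 and 7.27, Hopx at 45.3 and 10.4, and Slc12a2, a sodium, potassium and chloride cotransporter, at 154 and 57.1 CPM. Each of the 10 passed the test in the lower direction, where 4.18% of all genes did.

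In Het macrophages the companions were Atp6v0d2, Wfdc17, Fabp4, Gpnmb, Inhba, Il1a, Wfdc21, Spp1, Areg and Tnf. Wfdc17 stood at 1472 and 1680 CPM in Car4-positive against 150 and 222 CPM in Car4-negative cells, and fell from 614 to 47.9 CPM in the macrophage sums (log2 fold change -3.67, adjusted p = 3.8e-05). Inhba, a subunit of activins, fell from 165 to 23.1 CPM and Il1a, the alarmin interleukin 1 alpha, from 219 to 79.9 CPM. Of the 10, Spp1 (osteopontin) did not pass (296 and 165 CPM, log2 fold change -0.83, adjusted p = 0.414). The others passed in the lower direction, where 7.63% of all genes did. They too were chosen in Het counts that enter the comparison, so this is no independent support. Positive macrophages were deeper than negative ones (17910 and 19629 against 14281 and 14680 UMIs). The companion genes of endothelium and of macrophages share 0 of 10 members. Each list was drawn within its own lineage and no expected overlap was computed, so no conclusion is drawn from this.

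Across 60 sums of 30 named clusters in the Het libraries, the genes whose log2 CPM was most like that of Car4 were Cpne8, Prdm1, Psmd8, Gm13571, Zfp979, Gm33370, Vps35, Hsd3b7, Entr1 and Nkiras2, with Pearson's r of 0.661 to 0.732 among 13027 genes. The sums share libraries and differ in depth, so r is a description. Cpne8, a calcium-dependent membrane-binding protein, stood at 134 and 102 CPM in the Het and KO means of endothelium (log2 fold change -0.39, adjusted p = 0.0616) and fell from 45.0 to 26.0 CPM in macrophages (log2 fold change -0.79, adjusted p = 0.000304). Prdm1, a transcriptional repressor, fell in endothelium (33.1 to 18.1 CPM, adjusted p = 0.0141) and not beyond the threshold in macrophages (108 and 95.2 CPM, adjusted p = 0.0936). Gm13571, a non-coding RNA gene model, fell from 13.2 to 0.857 CPM in macrophages (log2 fold change -3.78, adjusted p = 7.8e-05) and had too few UMIs to be tested in endothelium.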

How the data were processed

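Gene-by-barcode UMI counts were deposited by the authors as 1 matrix per library, made with Cell Ranger 4.0.0 on mm10, per the submitters' processing notes, from 3′ libraries of a droplet kit, per the labels' protocols. Cells were kept from 500 detected genes upward where mitochondrial UMIs made up 15% or less, and the cells of highest Scrublet score removed as doublets (0.8% per 1000 cells). Cells were clustered without Car4 (scanpy 1.11.5, 2000 variable genes, 30 components, Leiden resolution 1) and named from at least 3 markers. Details of the naming rule were set after clusters had been seen. Car4 and the gene lists were chosen with earlier results of these data known. Counts were summed per library and lineage and tested with edgeR 4.0.16 (TMM, filterByExpr, quasi-likelihood, 2 Het against 3 KO libraries), with DESeq2 1.42.0 as an alternative. CPM in tested genes are TMM-scaled, and those of Car4 are not. Total UMIs per library were 56608582 to 93708304, and 3601920 to 5362065 in the endothelial and 9943543 to 21305029 in the macrophage sums. Binomial intervals and limits (3 counts) cover counting error only. On simulated counts with 200 genes changed by 1 on the log2 scale, the fit recovered 73.2% in endothelium and 84.6% in macrophages, with 9 false calls in each. Named genes were Car4, called members of the carbonic anhydrase and transport lists, markers, and the 10 companions or likest genes; other list members, chosen after their values were seen, are given for contrast. Same-numbered libraries share only a number.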

Additional observations from a re-analysis of the deposited data

How the results depend on the processing

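The direction of the Car4 difference held in both lineages, for the share and the CPM, under every alternative run. Thinned to 3000 UMIs, the share differed by -20.4 percentage points in endothelium and -8.70 in macrophages, and the log2 ratio of UMIs per positive endothelial cell turned to 0.038. The endothelial share differed by -27.4 points under stricter limits (1000 genes, 10% mitochondrial UMIs) and by -27.0 at Leiden resolution 0.5, and the macrophage share by -13.3 with doublets kept. Leaving out 1 library at a time gave Car4 log2 fold changes of -5.01 to -4.25 in endothelium and -3.03 to -2.43 in macrophages, share differences of -25.5 to -23.9 and -15.4 to -13.9 points, and log2 ratios of UMIs per positive cell of -1.13 to -0.81 and -1.56 to -1.19. The part of the fall from the mix of clusters, an alternative set added after seeing the data, was 12.85%, 4.81% and 9.18% in endothelium with doublets kept, at resolution 0.5 and with Car4 in the clustering; in macrophages it was 45.9% by marker number and 66.8% at resolution 0.5.

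Genes called in endothelium numbered 1640 with no low-count filter, 269 with the replicate number as a block, 141 with sex as a covariate and 1047 with mixed cells left out, and 103 to 1106 without 1 library. In macrophages they numbered 851 with sex as a covariate and 688 to 2035 without 1 library. With the replicate block, where same-numbered libraries correlated at 0.04 and 0.03 in endothelium and 0.17 and 0.13 in macrophages over 2 pairs and KO replicate 3 had no partner, the macrophage count was 2304, and 1 carbonic anhydrase (Car2) and 1 transport gene (Slc4a1) rose in macrophages. In endothelium 1 transport gene fell with DESeq2, library size alone, no filter, mixed cells left out and doublets kept; 2 carbonic anhydrases fell with no filter and 1 with doublets kept; 1 aerocyte marker rose with no filter and with mixed cells left out (there Fibin), and 1 general capillary marker (Plvap) rose with mixed cells left out. In macrophages 2 carbonic anhydrases fell with no filter, and 0 transport genes fell with sex as a covariate. Without 1 library, 0 to 1 carbonic anhydrases and 0 to 1 transport genes fell in endothelium, 4 to 7 aerocyte markers fell and 0 to 1 rose, 1 to 2 general capillary markers fell, 12 to 14 alveolar macrophage markers fell and 0 to 1 transport genes fell in macrophages. Without a Het library the lone Het sample is assumed to vary like the KO group. The causes were not tested.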
